A study of Mus musculus with 4 samples.

Results

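The PRL phosphatases and their CNNM partners were followed in the RNA of cells that had been given tumour exosomes. The 7 genes were the 3 PRL phosphatase genes, Ptp4a1 (PRL-1), Ptp4a2 (PRL-2) and Ptp4a3 (PRL-3), and the 4 genes of the CNNM family, Cnnm1 to Cnnm4. They were chosen by symbol from tables of 56004 gene rows per library, and all 7 symbols were found. Ptp4a1 was listed on 2 rows, of which the row with the higher mean was kept.

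The study sequenced the RNA of mouse cells labelled Kupffer cells, which are liver macrophages, 48 h after exosomes were added. The exosomes, small vesicles that cells release, came from MC38 mouse colon carcinoma cells. One group of cells received exosomes of the line named MC38-PRL-3 and is called the PRL-3 group. The control group received exosomes of the line named MC38-VT and is called the VT group. There were 2 libraries in each group and 4 in all. The labels call them biological replicates without saying what separated the cultures, so the p values measure only the spread between these samples. VT is not expanded in the labels, an amount of 10 ug of exosomes is written beside the MC38-VT group only, the amount of MC38-PRL-3 exosomes is not clear from the labels, so the doses may differ, and the strain, age and sex of the mice are not stated. All libraries come from the cells that took the exosomes. Neither the exosomes nor the MC38 cells were analysed here, and PRL-3 transcripts carried in by exosomes cannot be told apart from those made by the cells themselves.

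PRL phosphatases are small enzymes of the cysteine phosphatase class. Each carries a catalytic cysteine in a short loop that binds phosphate, and ends in a CAAX box, a signal for farnesylation that anchors the protein to membranes. The CNNM proteins are membrane proteins with a CBS-pair domain that take part in magnesium transport. A PRL phosphatase binds that domain through its active site, and the complex alters the magnesium content of the cell. PRL-3 is best known for its raised level in metastases of human colorectal cancer.

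The active-site loop is shown first because it is the part of the PRL proteins that the CNNM domain meets, and to show how far the transcripts of the family differ there. The sequences were read from the mouse genome GRCm38 with the GENCODE annotation, run 5′ to 3′ on the coding strand, and cover 24 bases from the codon of the histidine before the catalytic cysteine to the codon of the arginine that closes the loop. Capitals mark a base that differs from Ptp4a3. An intron interrupts the loop in all 3 genes.
Ptp4a3 (chr15:73755402-73756028, plus strand): cactgtgtggcgggcctgggaagg
Ptp4a1 (chr1:30944006-30944558, minus strand): caTtgtgtCgcAggcctTggCagA
Ptp4a2 (chr4:129845170-129846465, plus strand): caTtgtgtTgcAggATtgggaagg

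Ptp4a1 differed from Ptp4a3 at 6 of these 24 bases, and Ptp4a2 at 5. The last 4 codons with the stop codon, which hold the CAAX box that is farnesylated, are shown in the same way for the membrane anchor. They lie within the last coding exon of each gene.
Ptp4a3 (chr15:73756900-73756914, plus strand): tgctgcgtcatgtag
Ptp4a1 (chr1:30943206-30943220, minus strand): tgTtgTAtTCAAtaA
Ptp4a2 (chr4:129847808-129847822, plus strand): tgctgTgtTCAgtag

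In these 15 bases, Ptp4a1 differed from Ptp4a3 at 8 positions and Ptp4a2 at 4. Over the whole coding sequence, 68.0% of the aligned bases were identical between Ptp4a1 and Ptp4a3, 68.9% between Ptp4a2 and Ptp4a3, and 76.05% between Ptp4a1 and Ptp4a2. The translated sequences, of 173 codons for Ptp4a1 and Ptp4a3 and 167 for Ptp4a2, were identical at 76.3%, 77.8% and 89.2% of residues for the same pairs. PRL-1 and PRL-2 were thus the closest pair, and PRL-3 stood about equally far from either. The longest run of bases shared by any pair of PRL transcripts was 18, which is short against the fragments of 210 to 220 bases implied by the values.

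The CNNM genes were farther from each other. Their coding sequences held 972, 875, 713 and 771 codons from Cnnm1 to Cnnm4. Cnnm2 and Cnnm4 were the closest pair, with 65.2% of residues identical, and Cnnm3 and Cnnm4 the farthest, with 49.2%. Cnnm4 and Cnnm3 are neighbours on chromosome 1, on the same strand, and 3102 bases separate the end of Cnnm4 from the start of Cnnm3. The longest run shared by a pair of CNNM transcripts, 62 bases, was also that of Cnnm3 and Cnnm4, again shorter than a fragment.

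The deposited values were taken to be FPKM (fragments per 1e6 fragments and per kilobase of transcript), so that levels of genes of different length can be compared. The depth implied by the low values was 16.9 to 18.3 in units of 1e6 fragments, with the lowest in PRL-3 replicate 1. That library stood apart from the others: the SD of its log2 ratio to another library was 0.402 to 0.412, against 0.313 to 0.366 for the remaining pairs. Of 8 macrophage markers, 7 were abundant, with a summed level of 7908 to 8018 FPKM in the PRL-3 group and 9035 to 9096 in the VT group, and Mertk was at 0.02 or less. Of 10 Kupffer cell markers, 8 stayed under 1 FPKM and Clec4f, Vsig4, Timd4, Marco and Cd163 were listed at 0 in all libraries. Id3 was detected at 14.67 to 17.06 FPKM. Cd5l stood at 2.36 and 1.05 FPKM in PRL-3 replicates 1 and 2, and at 3.52 and 3.51 in VT replicates 1 and 2. Its limma p was 0.023 before and 0.493 after adjustment over all genes. The Kupffer identity therefore rests on the labels. Markers of hepatocytes, liver endothelium, epithelium, T and NK cells and B cells were all under 1 FPKM, and the 6 stellate cell and fibroblast markers summed to 8.49 to 9.94 FPKM in the PRL-3 group and 5.56 to 6.45 in the VT group, with Lrat at 0. Of 5 neutrophil markers, Ly6g, Mpo and Elane were at 0 and the sum of 217 to 309 FPKM was almost entirely S100a8, which monocytes and macrophages also make.

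All 3 PRL phosphatase genes were expressed well above their CNNM partners, and Cnnm1 was not detected. Ptp4a2 had the highest level, with a mean of 95.8 ± 4.19 FPKM (SD, n = 4 libraries), which placed it above 91.0% of the 12193 genes tested. Ptp4a1 followed with 40.6 ± 3.06 FPKM (SD, n = 4), above 77.9% of the genes, and Ptp4a3 with 21.0 ± 0.868 FPKM (SD, n = 4), above 61.4%. The phosphatase named in the study was thus the least abundant of its family in the recipient cells.

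Of the CNNM genes, Cnnm2, whose human counterpart is known from inherited loss of magnesium through the kidney, had the highest level at 6.41 ± 0.934 FPKM (SD, n = 4), above 30.0% of the genes tested. Cnnm3 followed at 2.85 ± 0.447 FPKM and Cnnm4, a magnesium exporter of the intestine in mice, at 2.66 ± 0.255 (SD, n = 4 each). Cnnm1, known mainly from brain and testis, was listed at 0 in every library, and 3 fragments, the limit that a count of 0 allows for counting error, would have been 0.0604 to 0.0655 FPKM. Each gene stood above the next in all 4 libraries down to Cnnm2, with a step of 2.36-fold from Ptp4a1 to Ptp4a2, 1.93-fold from Ptp4a3 to Ptp4a1, 3.28-fold from Cnnm2 to Ptp4a3 and 2.25-fold from Cnnm3 to Cnnm2. Cnnm3 and Cnnm4, 1.07-fold apart, overlapped and did not differ beyond their spread.

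**Figure D1:**
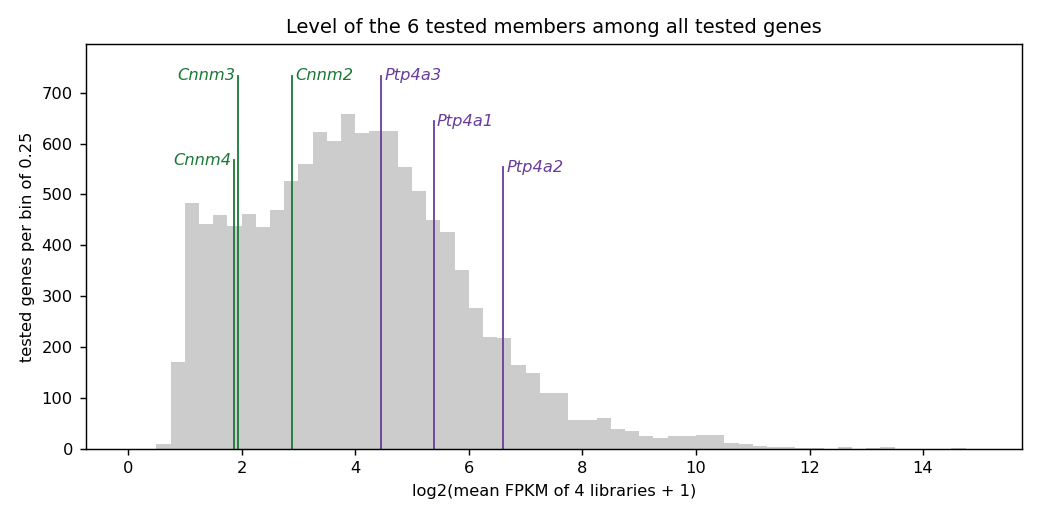
Histogram of the mean level of all 12193 tested genes, with log2(mean FPKM of the 4 libraries + 1) on the horizontal axis and the number of genes per bin on the vertical axis. Coloured lines mark the 6 tested members, PRL genes in purple and CNNM genes in green. Ptp4a2 lies above 91.0% of the genes and Cnnm3 and Cnnm4 in its low part.

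The implied number of fragments behind these values was 5606 to 6248 per library for Ptp4a2, 2550 to 2926 for Ptp4a1 and 1177 to 1280 for Ptp4a3. For the CNNM genes it was 475 to 603 for Cnnm2, 210 to 297 for Cnnm3 and 186 to 222 for Cnnm4. Counting alone, as the square root of these numbers, gave an error of 1.27% to 2.92% for the PRL genes and 4.07% to 7.33% for the CNNM genes. The SD over the 4 libraries was larger than that for every one of the 6 genes, at 4.37% of the mean for Ptp4a2, 7.53% for Ptp4a1, 4.14% for Ptp4a3, 14.6% for Cnnm2, 15.7% for Cnnm3 and 9.58% for Cnnm4. The CNNM genes were therefore measured less precisely than the PRL genes.

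The proportions within each family were similar in the 4 libraries. Ptp4a2 gave 59.5% to 62.7% of the summed PRL level, Ptp4a1 24.1% to 27.0% and Ptp4a3 12.9% to 13.8%. Between 1.84 and 2.00 units of Ptp4a1 and between 4.30 and 4.78 units of Ptp4a2 were present per unit of Ptp4a3. Among the CNNM genes the shares moved more, with 49.4% to 58.0% for Cnnm2, 19.3% to 29.4% for Cnnm3 and 21.2% to 23.2% for Cnnm4. The summed PRL level exceeded the summed CNNM level 12.5-fold and 14.5-fold in PRL-3 replicates 1 and 2, against 13.3-fold and 12.6-fold in VT replicates 1 and 2, so the ranges of the groups overlapped.

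The only comparison the design gives is that of PRL-3 with VT exosomes. It asks here whether the PRL and CNNM transcripts found in the recipient cells, whatever their origin, differed with the exosome the cells received. None of the 6 members tested passed the threshold, a limma p under 0.05 after adjustment over all 12193 genes by the method of Benjamini and Hochberg, and none had an unadjusted p under 0.05. Over all genes 0.0492% passed (6 genes, with 0.0246% or 3 genes in each direction), and 9.51% had an unadjusted p under 0.05. That count of 6 was not stable, at 0 without either VT library, 2 in the absence of PRL-3 replicate 1 and 100 without PRL-3 replicate 2. The adjusted p of the members ran from 0.707 to 0.971. Each log2 difference is the PRL-3 mean minus the VT mean of log2(FPKM + 1), a scale that understates the change of low genes. The median of the members was 0.07, with a range of -0.03 to 0.14, and the median of all genes was 0.02.

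Each of the 3 PRL phosphatases, out of 6 tested members, had higher values in the PRL-3 group with no overlap, without passing the test. Of all genes tested, 24.3% had this order. Ptp4a3, the gene of PRL-3 itself, stood at 21.96 and 21.12 FPKM in PRL-3 replicates 1 and 2, and at 19.85 and 21.06 in VT replicates 1 and 2. Only 0.06 FPKM separated the lower PRL-3 library from the higher VT library, less than the counting error. The means were 21.5 ± 0.594 and 20.5 ± 0.856 FPKM (SD, n = 2 each), and the log2 difference was 0.07 ± 0.10 (SE) with a 95% interval of -0.18 to 0.32 and an adjusted p of 0.849. In terms of FPKM + 1 the interval ran from 0.88-fold to 1.25-fold, so that a larger difference of Ptp4a3 in the recipient cells lies outside it.

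Ptp4a1, which encodes PRL-1, first described as an immediate early gene of regenerating rat liver, stood at 43.94 and 41.34 FPKM in PRL-3 replicates 1 and 2, and at 36.55 and 40.68 in VT replicates 1 and 2. Its difference was the largest among the members. The means were 42.6 ± 1.84 and 38.6 ± 2.92 FPKM (SD, n = 2 each), with a log2 difference of 0.14 ± 0.11 (SE), a 95% interval of -0.12 to 0.40 and an adjusted p of 0.707. VT replicate 1 was the low library and VT replicate 2 lay 0.66 FPKM below the nearest PRL-3 library.

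Ptp4a2, the gene of the widely expressed PRL-2, stood at 96.79 and 100.72 FPKM in PRL-3 replicates 1 and 2, and at 94.98 and 90.63 in VT replicates 1 and 2. The groups did not overlap, and the values within each lay farther apart than the nearest libraries of different groups. Means of 98.8 ± 2.78 and 92.8 ± 3.08 FPKM (SD, n = 2 each) gave a log2 difference of 0.09 ± 0.10 (SE), a 95% interval of -0.15 to 0.33 and an adjusted p of 0.808. Over all genes tested, the PRL-3 values were all above the VT values for 24.3% and all below them for 18%, so an order of this kind was common in these data. The summed PRL level was 162.69 and 163.18 FPKM in PRL-3 replicates 1 and 2, against 151.38 and 152.37 in VT replicates 1 and 2. Since each of the 3 genes has this order, their sum must have it too, and it was not tested. Ptp4a1 and Ptp4a2 ranked the replicates of each group in opposite order, which narrows the spread of the sum. The summed macrophage markers were lower in the same PRL-3 libraries, but most of that sum is Lyz2: of the 7 tested markers Lyz2 and Cd14 were lower in both PRL-3 libraries, Fcgr1 was higher in both, the other 4 overlapped, and none passed the test. The summed stellate cell and fibroblast markers were higher in the PRL-3 libraries, as were Col1a1, Col3a1, Pdgfrb and Acta2. Dcn, the most abundant of them, overlapped. Col1a1, Col3a1 and Pdgfrb were too low to enter the test, with a highest value of 0.86 FPKM (Col3a1, PRL-3 replicate 2). Acta2 stood at 1.94 and 2.61 FPKM in PRL-3 replicates 1 and 2, and at 0.97 and 0.86 in VT replicates 1 and 2. Neither Acta2 (limma adjusted p = 0.449) nor Dcn (0.926) passed the test. The part of either list in the PRL levels was not tested. In bulk RNA, fewer cells of a type and less RNA per cell cannot be told apart.

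**Figure D2:**
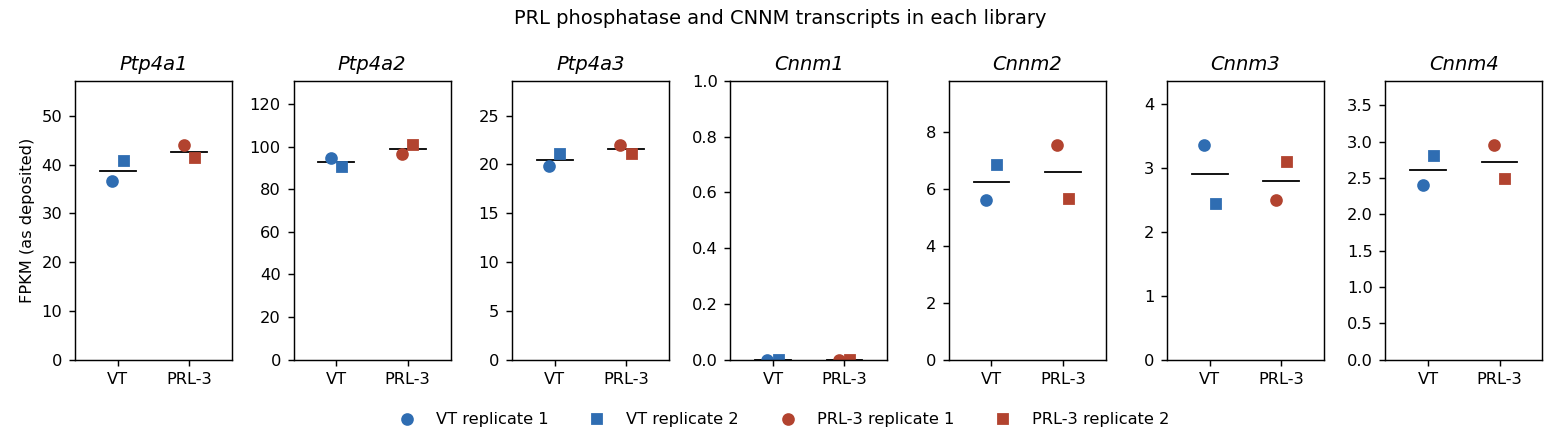
Level of each member in FPKM as deposited, on a vertical axis that starts at 0 in every panel and differs between panels, with VT libraries in blue and PRL-3 libraries in red. Circles are replicate 1, squares replicate 2 and bars the mean of each group. The PRL-3 points lie above the VT points for the 3 PRL genes, by 0.06 FPKM for Ptp4a3, the points overlap for Cnnm2, Cnnm3 and Cnnm4, and Cnnm1 is at 0 throughout.

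The 3 detected CNNM genes did not separate the groups. Cnnm2 stood at 7.53 and 5.66 FPKM in PRL-3 replicates 1 and 2, and at 5.62 and 6.83 in VT replicates 1 and 2. The highest and the second lowest value were both in the PRL-3 group. The log2 difference was 0.07 ± 0.17 (SE), with a 95% interval of -0.36 to 0.49 and an adjusted p of 0.927. Cnnm4, at 2.95 and 2.49 FPKM in PRL-3 replicates 1 and 2 against 2.41 and 2.80 in VT replicates 1 and 2, ordered the libraries as Cnnm2 did. Its log2 difference was 0.04 ± 0.17 (SE), with a 95% interval of -0.37 to 0.45 and an adjusted p of 0.953.

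Cnnm3, with 2.50 and 3.09 FPKM in PRL-3 replicates 1 and 2 against 3.35 and 2.44 in VT replicates 1 and 2, was the only member with a lower mean in the PRL-3 group. The highest and the lowest of its values were both in the VT group. The log2 difference was -0.03 ± 0.19 (SE), with a 95% interval of -0.50 to 0.43 and an adjusted p of 0.971. In terms of FPKM + 1, the intervals of the CNNM genes reached from 0.708-fold (Cnnm3) to 1.41-fold (Cnnm2). They were wider than those of the PRL genes. With 2 libraries a group, the data were compatible with any difference inside the interval of each gene.

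**Figure D3:**
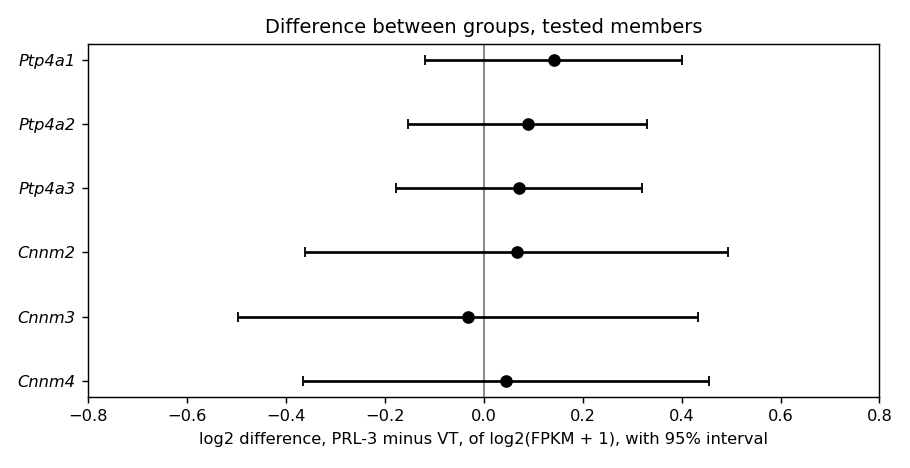
Log2 difference, PRL-3 minus VT, of log2(FPKM + 1) for each tested member on the horizontal axis. Points are the limma estimates and bars their 95% intervals. All 6 intervals include 0, and those of the CNNM genes, such as -0.50 to 0.43 for Cnnm3, are wider than those of the PRL genes.

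The direction of the CNNM differences depended on single libraries. Without PRL-3 replicate 1 the log2 difference of Cnnm2 was -0.11, that of Cnnm3 0.08 and that of Cnnm4 -0.04, each with the sign opposite to that with all 4 libraries. Without VT replicate 1 the same 3 genes changed sign, to -0.05, 0.14 and -0.03. For the PRL genes the difference stayed above 0 whichever library was left out, at 0.07 to 0.22 for Ptp4a1, 0.06 to 0.12 for Ptp4a2 and 0.03 to 0.11 for Ptp4a3. Since the groups of these 3 genes do not overlap, that order fixes the sign and is no sign of stability.

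**Figure D4:**
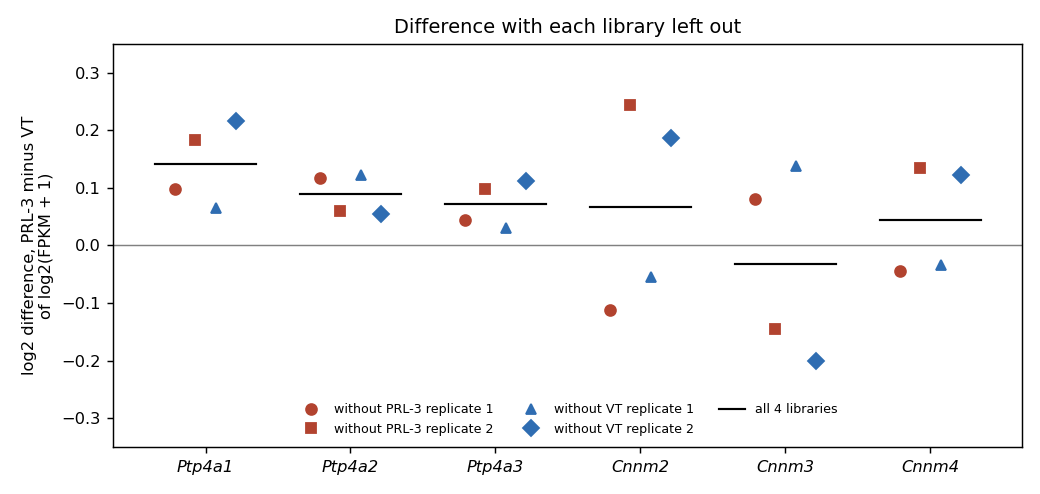
Log2 difference, PRL-3 minus VT, of log2(FPKM + 1) for each tested member on the vertical axis, with 1 library left out at a time. Symbols name the library left out and black bars the value with all 4 libraries. Cnnm2, Cnnm3 and Cnnm4 fall on both sides of 0 (-0.11 to 0.24 for Cnnm2), and the PRL genes stay above it.

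Reads of Ptp4a1 could have been divided between near-identical entries. The symbol stands on 2 rows whose annotated genes overlap on the minus strand of chromosome 1 (30940302 to 30949770 and 30940302 to 30949309, GRCm38), share their downstream exons and differ in the first exon. The second row was listed at 0 and 0.15 FPKM in PRL-3 replicates 1 and 2, and at 0.39 and 0.06 in VT replicates 1 and 2, at most 1.07% of the first. Both carry a transcript with the phosphatase coding sequence of 522 bases. Of the 3 annotated transcripts of the first row, 1 holds this sequence, while the others are annotated with short coding sequences of 132 and 135 bases, and the deposited value does not separate them.

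Processed pseudogenes, copies of a spliced transcript, were a further place where Ptp4a1 reads could go. Gm8783 and Gm15801, both on chromosome 19 and 522 bases long, match Ptp4a1 over their whole length. Each was listed at 5.96 and 0 FPKM in PRL-3 replicates 1 and 2, and at 3.71 and 3.20 in VT replicates 1 and 2, and their values were the same in every library. The highest of these amounts to about 30.5 fragments for each entry, and the 4 pseudogenes that share 100 bases or more with Ptp4a1 together reached at most 61.0 fragments in a library, or 2.10% of those of Ptp4a1. Gm13363, with 335 shared bases, was above 0 only in VT replicate 1 (0.56 FPKM), and Gm5582 was at 0. For Ptp4a2, the pseudogene Gm13422 was listed only in PRL-3 replicate 2 (0.40 FPKM). No entry sharing 100 bases or more was found for Ptp4a3 or Cnnm2. The antisense genes Gm47938 at Cnnm1 and Gm38033 at Cnnm3 were at 0 in all libraries, and Gm47280, which shares sequence with Cnnm4, was not analysed here.

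Around the members, the genes that carry or sense magnesium were described from a list of 17 genes, of which 16 were found and 12 tested. None passed the test, 7 had a higher and 5 a lower mean of log2(FPKM + 1) in the PRL-3 group, and the median log2 difference was 0.07. The PRL-3 values were all above the VT values for 4 of the 12 and all below for 3, against 24.3% and 18% of all genes. Nipal3, a relative of the NIPA magnesium transporters, had the largest positive difference. It stood at 11.70 and 9.40 FPKM in PRL-3 replicates 1 and 2, and at 6.34 and 8.53 in VT replicates 1 and 2. The log2 difference was 0.46 ± 0.18 (SE) with a 95% interval of 0.02 to 0.89 and an adjusted p of 0.513, and it was the only gene of the list with an unadjusted p under 0.05 (0.042).

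Slc41a1, a sodium-magnesium exchanger in human cells, lay at 3.37 and 3.17 FPKM in PRL-3 replicates 1 and 2, and at 5.26 and 3.76 in VT replicates 1 and 2. It had the largest negative difference of the list, at -0.35 ± 0.18 (SE) and an adjusted p of 0.593. The most abundant genes were Nipa2, a magnesium transporter (33.83 and 33.78 against 33.92 and 39.20 FPKM), Magt1, a subunit of the oligosaccharyltransferase also studied as a magnesium transporter (31.74 and 32.99 against 37.90 and 37.07) and Mmgt2, a membrane magnesium transporter (24.66 and 27.51 against 25.13 and 23.32). Magt1 was lower in both PRL-3 libraries, with a log2 difference of -0.21 ± 0.10 (SE) and an adjusted p of 0.568. In every library these 3 genes stood above every CNNM gene and above Ptp4a3. Trpm6, Nipal1, Nipal2 and Nipal4 were at 0.22 FPKM or less and were not tested.

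The CAAX box of the PRL proteins is farnesylated and then trimmed and methylated by a short set of enzymes. The list used, of 8 genes for the addition of lipids to CAAX boxes and for later processing, is wider than farnesylation and holds Pggt1b and Ggps1 too. All 8 genes were tested, and none passed the test. The mean of log2(FPKM + 1) was lower in the PRL-3 group for 7 of 8, against 5685 of all 12193 genes tested. For Ggps1, 1 of these 7, the mean was higher when taken in FPKM. The median log2 difference of the list was -0.07, with a range of -0.18 to 0.01. The PRL-3 values were all below the VT values for 4 of 8, against 18% of all genes. Fdps, which makes farnesyl diphosphate, was the most abundant, at 289.21 and 293.09 FPKM in PRL-3 replicates 1 and 2, and at 302.46 and 315.42 in VT replicates 1 and 2. The log2 difference was -0.08 ± 0.10 (SE) and the adjusted p 0.823. Fntb, the beta subunit of farnesyltransferase, had the largest negative difference, -0.18 ± 0.14 (SE, adjusted p = 0.711), at 4.43 and 4.26 FPKM against 5.37 and 4.77. Zmpste24, a CAAX protease, was at 38.88 and 39.74 FPKM against 43.13 and 42.03 (adjusted p = 0.742). Fnta, the alpha subunit that farnesyltransferase shares with a related enzyme, had the largest positive difference, 0.01 on the log2 scale, at 35.43 and 37.66 FPKM against 37.05 and 35.64 (adjusted p = 0.989).

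Other small cysteine phosphatases related to the PRL enzymes in fold were read in the same way. Of 8 listed, 6 were tested, none passed, 2 had a higher and 4 a lower mean in the PRL-3 group, and the median log2 difference was -0.02. Dusp3, a dual-specificity phosphatase that acts on MAP kinases, was at 37.87 and 32.73 FPKM in PRL-3 replicates 1 and 2, and at 38.89 and 39.50 in VT replicates 1 and 2, with a log2 difference of -0.15 ± 0.11 (SE) and an adjusted p of 0.701. Ptpmt1, a mitochondrial phosphatase of cardiolipin synthesis, was at 22.11 and 23.37 against 21.50 and 22.15 FPKM (adjusted p = 0.885). Ptpdc1 and Dusp23 stayed under 1 FPKM and were not tested.

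Of 8 genes whose proteins have been described, mostly in human cells, as partners or substrates of PRL-3, 5 were tested and none passed, with 3 higher and 2 lower means and a median log2 difference of 0.02. Stmn1, the microtubule-destabilising protein stathmin, had the largest negative difference of this list. It stood at 62.58 and 75.94 FPKM in PRL-3 replicates 1 and 2, and at 80.72 and 89.95 in VT replicates 1 and 2, with a log2 difference of -0.30 ± 0.13 (SE), a 95% interval of -0.62 to 0.02 and an adjusted p of 0.550. Eef2, the translation elongation factor, was at 1381.15 and 1327.83 against 1202.23 and 1270.31 FPKM (log2 difference 0.13 ± 0.11, SE, adjusted p = 0.741). Ncl, the nucleolar protein nucleolin (558.96 and 722.49 against 676.28 and 696.85 FPKM), and Fkbp8, a membrane-bound immunophilin (146.18 and 127.03 against 133.42 and 135.43), overlapped between the groups. Itga1, Cdh22 and Krt8, an integrin, a cadherin and a keratin of other cell types, were at 0.10 FPKM or less and were not tested.

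**Figure D5:**
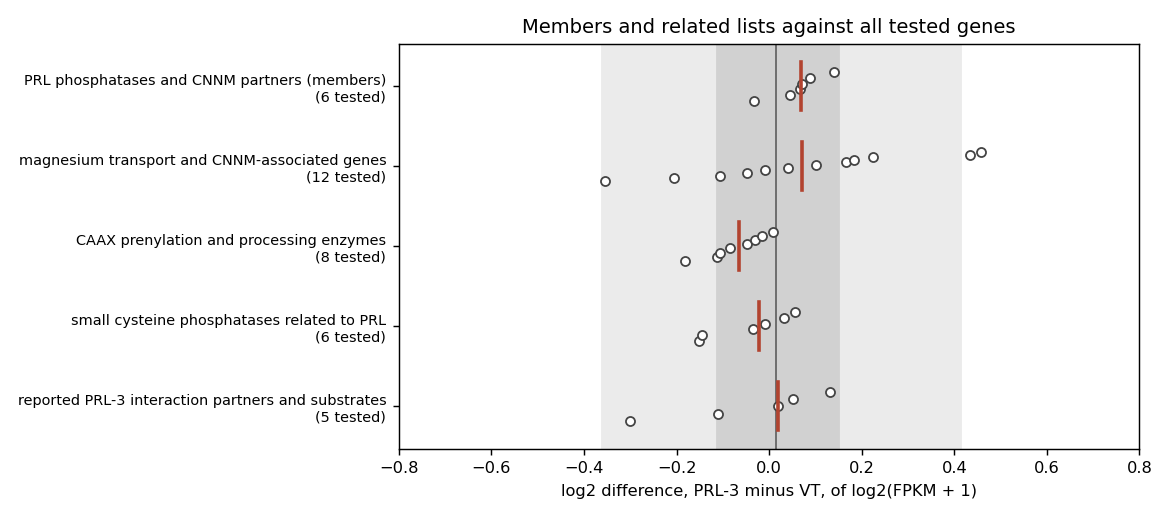
Log2 difference, PRL-3 minus VT, of log2(FPKM + 1) for every tested gene of the members and of the 4 related lists. Circles are genes, red bars the median of each list, the dark band the middle of all tested genes from the 25th to the 75th percentile (-0.11 to 0.15), the light band the 5th to the 95th (-0.36 to 0.41) and the vertical line their median. The members lie within the dark band, and the list of magnesium transport genes spreads from -0.35 to 0.46.

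The genes whose values followed those of Ptp4a3 most closely were found by centring the log2 values of each gene with a mean of 5 FPKM or more on their mean over the 4 libraries. Nearest by root mean square difference were Ap1g1, a subunit of the AP-1 clathrin adaptor (0.0038 on the log2 scale), Ergic3, a protein of the compartment between endoplasmic reticulum and Golgi (0.0044), Myo1d, an unconventional myosin (0.0083), and Atxn10 (0.011). Ap1g1 was at 36.97 and 35.60 FPKM in PRL-3 replicates 1 and 2, and at 33.61 and 35.35 in VT replicates 1 and 2, the same order of libraries as for Ptp4a3. With only 4 libraries, 606 of 9133 genes lay within 0.05 of Ptp4a3. The spread of Ptp4a3 itself was 0.05 on this scale, so a gene that does not vary would lie about as near. That count therefore does not tell how common the closer likeness of the named genes was.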

How the data were processed

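Each library's table holds 1 value per gene, which was read as FPKM as the authors deposited it, because column sums differ between libraries (675475 to 725599), values are not whole, and low values scale with transcript length. No source used here names the unit. RSEM, DESeq2 and mm10 are named in the authors' processing notes, without roles or versions. For the aligner and the gene annotation, the entry is: not given in the sources used here. Depth was inferred from low values of single-transcript genes of 600 to 2000 bases, of which 89.7% to 91.4% came out as whole fragments within 0.2 (40% by chance), and is an approximation.

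Genes at 1 FPKM or more in at least 2 libraries entered limma 3.58.1 (R 4.3.3) on log2(FPKM + 1), with mean-variance trend and robust moderation, and called at a Benjamini-Hochberg adjusted p under 0.05. The script was tested on simulated data. Transcripts, positions and sequences came from GENCODE M21 on GRCm38, the assembly of mm10. Named were all members and, from each related list, the 3 genes of highest mean, any called gene and the largest difference in each direction, with the 4 genes nearest to Ptp4a3. Arl15 is not described, 1 gene that the rule names is not reported here, and Tusc3 was not analysed here. The members, lists and rules were chosen with earlier results of these data known. Alternatives changed the pseudocount, filter, scaling, moderation, replicate block, handling of repeated symbols and the libraries included.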

Additional observations from a re-analysis of the deposited data

How the results depend on the processing

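No member, and no gene of the 4 related lists, was called under any of the 8 alternative settings or with any library left out, where the lone library of a group was assumed to vary like the other group. The lowest adjusted p of a member under any of them was 0.393, for Ptp4a1. The number of genes called over the whole table, 6, was 1 with a pseudocount of 0.1, 0 with no filter on low values, 1 with a mean of 5 FPKM or more, and 2 without trend and robust moderation, and 0 to 100 with a library left out (100 without PRL-3 replicate 2, 2 when replicate 1 of that group was absent, 0 without either VT library). It stayed within 1.5 times of 6 with either scaling and with repeated symbols summed. The cause was not tested. With the replicate number as a block the count was 15. Deviations of same-numbered libraries had a correlation of -0.06 over the tested genes. With 2 libraries a group, that single value cannot decide whether same-numbered libraries were paired. The block changed no call of a member. Quantile normalisation turned Cnnm4 to -0.012. With a library left out, log2 differences ran from -0.11 to 0.24 for Cnnm2, -0.20 to 0.14 for Cnnm3 and -0.045 to 0.13 for Cnnm4, which change sign, and stayed above 0 for the PRL genes. Cnnm3 and Cnnm4 fell below the filter of 5 FPKM and had no value there. With 2 libraries a group, these data are compatible with any difference inside the printed interval of a gene. The low levels of the CNNM genes limit the data further.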
